A study of Mus musculus with 24 samples.

Results

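The 10 genes described here encode amino acid transporters of the cell surface: Slc7a5, Slc3a2, Slc1a5, Slc38a1, Slc38a2, Slc7a1, Slc7a6, Slc7a11, Slc1a4 and Slc43a1. They were taken by symbol from a UMI count table of 55414 genes, of which 25030 had a count, and all 10 were found by their Ensembl identifiers. The samples were 24 libraries of splenic Tconv CD4+ cells (CD4+ CD25-, "TE" in the labels), 6 in each of 4 groups. The mice shared the C57BL/6J nuclear genome and carried either the C57BL/6J mitochondrial genome (mtDNA B6, labelled WT) or that of the NZB strain (mtDNA NZB, labelled NZB). Cells of each haplotype were left resting (RES) or activated (ACT) with beads carrying antibodies to CD3 and CD28. The study's methods give several days of this stimulus for Tconv cells and name IL-2 in the same sentence. Activation here is therefore a late time point. Whether the resting cells were cultured for the same time is not given. The labels give no age, sex or animal number. The study's methods name young adult males for most experiments, without naming the animals of these libraries, and enrichment of the cells was by magnetic columns rather than by a flow sort. Whether the 6 libraries of a group came from separate animals is not given, so the p-values measure the spread between these libraries, which may be partly technical.

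Mammalian cells take up amino acids through carriers that differ in substrate and in driving force. The heavy chain encoded by Slc3a2 (CD98) escorts several light chains to the membrane, among them LAT1 (Slc7a5), which exchanges large neutral amino acids such as leucine for intracellular glutamine. Sodium-coupled carriers such as ASCT2 (Slc1a5), SNAT1 (Slc38a1) and SNAT2 (Slc38a2) bring in glutamine and other small neutral amino acids. T cells need these carriers to grow and divide after stimulation, and transcription of many of them is raised by the factors Atf4 and Myc when amino acids run short or growth is signalled.

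Promoter sequence was given for 7 members (RefSeq, GRCm38.p6; Slc7a5, Slc1a5 and Slc38a1 are not in that table). The 300-base windows around each start site were searched on both strands for TGATGNAA, a core of the amino acid response element bound by factors of the Atf4 family, and for CACGTG, the E-box bound by Myc among others. The 2 motifs shared no base in these windows. The first occurred in 3.97% and the second in 7.15% of 32851 mouse promoter windows of the same length. Matches were found for Slc7a11, Slc1a4 and Slc43a1, and these are shown because they are the only member windows that held either motif. Capitals mark the match, every sequence reads in the direction of the gene, and the windows of the 2 Slc7a11 matches overlap.
Slc7a11 (chr3:50443661-50443690, minus strand, match from base -66): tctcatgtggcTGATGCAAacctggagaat
Slc7a11 (chr3:50443642-50443671, minus strand, match from base -47): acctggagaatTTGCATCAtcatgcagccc
Slc1a4 (chr11:20332699-20332728, minus strand, match from base -4): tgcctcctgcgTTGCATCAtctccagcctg
Slc43a1 (chr2:84840248-84840275, plus strand, match from base -64): gggtctccctcCACGTGgcagccgtggg
Positions are counted from the annotated start site. Slc7a11 and Slc1a4, the members with the Atf4-type motif in this window, were also the 2 with the fewest UMI counts in these cells.

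Library totals ran from 2430562 to 5456681 UMI counts in the mtDNA B6 groups, from 641467 to 6449395 in activated mtDNA NZB cells and from 51409 to 3662366 in resting mtDNA NZB cells. The lowest total was that of resting mtDNA NZB replicate 2, in which 1 count was worth 16.9 CPM. CPM, the unit used throughout, is the UMI count scaled to a common library total after TMM normalisation. Il2ra, the activation-induced IL-2 receptor alpha chain, checked the state labels: it went from 3.00 ± 0.91 to 79.8 ± 32.3 CPM (mean ± SD, n = 6) in mtDNA B6 and from 2.79 ± 1.96 to 111 ± 58.4 CPM in mtDNA NZB. T cell identity genes summed to between 2834 and 5014 CPM in every library, and activation genes to between 92.0 and 282 CPM at rest and between 905 and 2281 CPM after activation. Markers of other cells also moved with the state. Summed CPM at rest and after activation ran from 474 to 3069 and from 10.2 to 104 for myeloid cells, from 370 to 18377 and from 7.12 to 168 for granulocyte precursors and neutrophils, and from 81.7 to 6564 and from 16.2 to 161 for erythroid cells. CD8 T cell genes went the other way, from 16.9 to 142 CPM at rest and from 82.0 to 534 CPM after activation, and platelet genes ran from 0.993 to 36.3 and from 13.9 to 435 CPM. B cell genes lay between 83.5 and 1218 CPM, NK cell genes between 4.31 and 70.1 CPM and Treg genes between 13.0 and 46.0 CPM over all libraries. Every marker gene had a count in every group except 1 of the 2 platelet markers in resting mtDNA B6 cells. At rest the median sums of the myeloid, granulocyte and erythroid genes were lower in mtDNA NZB than in mtDNA B6 cells, with overlapping ranges. They were 877 against 1541, 725 against 2790 and 202 against 1274 CPM in that order. The libraries also fell into 3 sets of 8 by reads per UMI, and 5 of the 6 activated mtDNA B6 libraries were in a set that held no resting mtDNA B6 library.

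**Figure D1:**
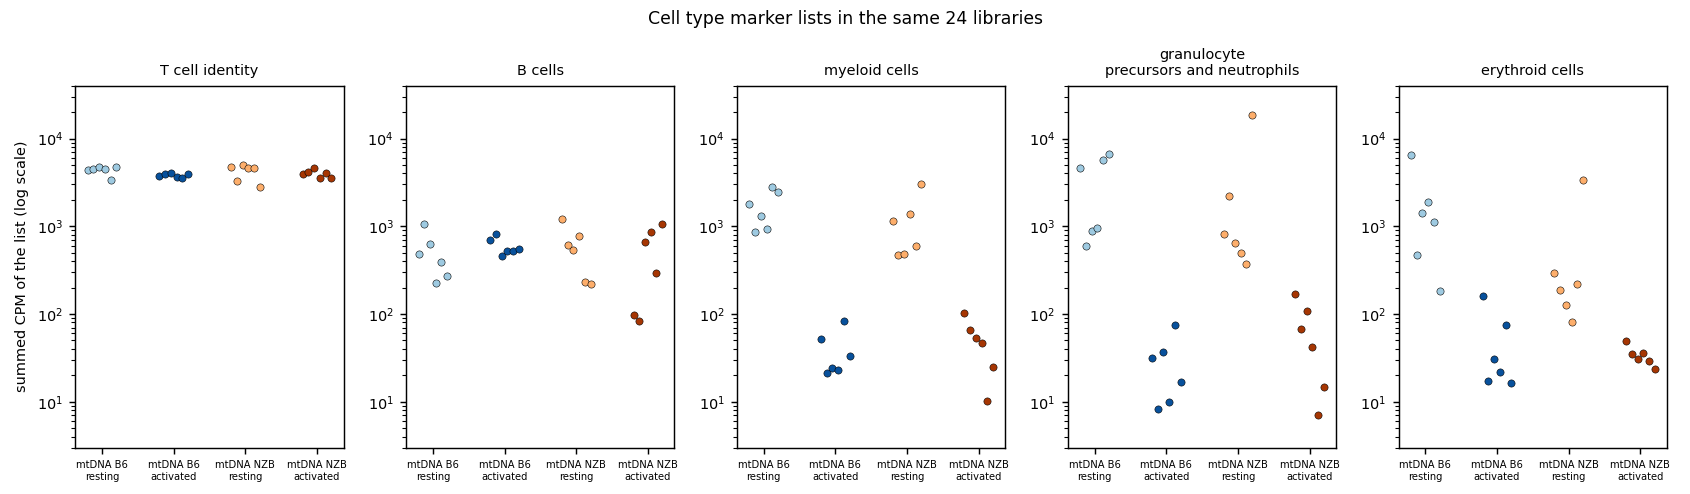
Summed CPM (log scale) of 5 marker lists in each of the 24 libraries, with 1 point per library and 6 per group. T cell identity genes stayed between 2834 and 5014 CPM, whereas myeloid, granulocyte and erythroid genes were higher in every resting than in every activated library for the first 2 lists, and overlapped for the third; resting mtDNA NZB replicate 6 stands highest, at 18377 CPM, for granulocyte genes.

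Of the 10 members, 8 passed the filter on low counts and were among the 10566 genes tested. Activation lowered Slc3a2 and Slc38a2 in both haplotypes. In mtDNA B6 cells Slc43a1 was lower as well and Slc7a6 was higher, so that 1 of 8 members rose and 3 fell, against 22.4% of all tested genes called higher and 24.5% called lower. In mtDNA NZB cells none of the 8 rose and 2 fell, against 25.2% and 28.4% of all genes. The median log2 fold change of the 8 members was -0.15 in mtDNA B6 and -0.36 in mtDNA NZB cells, and that of all tested genes -0.03 and -0.06. These shares of members lie within a few genes of the background, and nothing about the set as a whole is read from them. A gene was called when its adjusted p (edgeR's quasi-likelihood test, Benjamini-Hochberg over all 10566 genes) was at most 0.05, and CPM values are not divided by transcript length, so each gene is set only against itself. In bulk RNA, fewer cells of a type and less RNA per cell cannot be told apart.

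**Figure D2:**
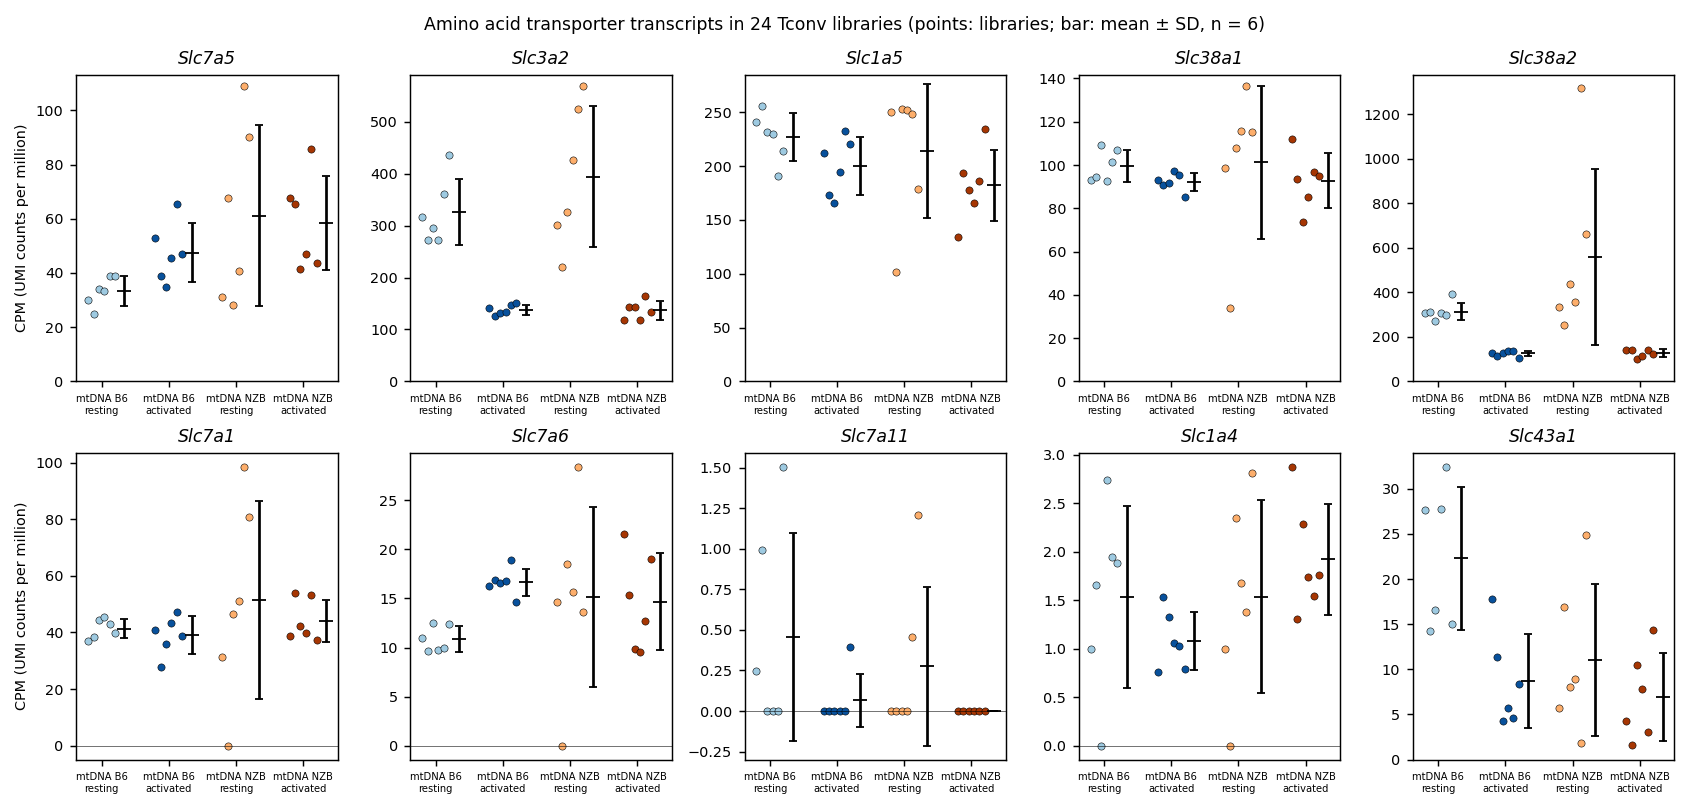
CPM of each of the 10 transporters in every library, with 1 point per library, 6 per group, and the mean ± SD beside the points (each panel has its own linear axis). Slc3a2 and Slc38a2 separate resting from activated libraries without overlap in both haplotypes, while Slc7a11 and Slc1a4 stay under 3 CPM throughout.

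Slc3a2 (ENSMUSG00000010095, chr19:8684245-8701108, minus strand, GRCm39), the shared heavy chain, ranged from 272 to 436 CPM with a median of 307 in resting mtDNA B6 libraries and from 125 to 151 with a median of 137 after activation. The groups did not overlap: its mean fell from 326 ± 63.5 to 138 ± 9.78 CPM (SD, n = 6), a log2 fold change of -1.24 (SE 0.16, adjusted p = 6.5e-07, edgeR). In mtDNA NZB cells it ranged from 220 to 569 CPM with a median of 377 at rest and from 118 to 165 CPM with a median of 138 after activation. Again every activated library lay under every resting one, with a log2 fold change of -1.58 (SE 0.16, adjusted p = 1.7e-08). A long noncoding gene, Gm59099, overlaps the last 1000 bases of Slc3a2 on the opposite strand, and the sources used here do not say whether counting used strand.

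Slc38a2 (ENSMUSG00000022462, chr15:96585266-96597894, minus strand), the sodium-coupled carrier SNAT2, ranged from 273 to 390 CPM with a median of 306 in resting mtDNA B6 libraries and from 105 to 138 with a median of 127 after activation. The groups were apart, with means of 314 ± 39.8 and 125 ± 12.7 CPM and a log2 fold change of -1.32 (SE 0.24, adjusted p = 8.6e-05). In resting mtDNA NZB libraries it ranged from 254 to 1318 CPM with a median of 396, and in the activated ones from 102 to 142 CPM with a median of 133. This was the widest fall among the 8 members in either haplotype, a log2 fold change of -2.19 (SE 0.25, adjusted p = 1.1e-07). After activation the levels of Slc38a2 in the 2 haplotypes were 125 and 127 CPM on average, and those of Slc3a2 138 and 137 CPM.

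Both falls were seen wherever resting and activated libraries of 1 haplotype shared a library set, although some sets held 1 library of a state. The mean difference in log2 CPM of Slc3a2 was -0.97 in the mtDNA B6 libraries of set 2 (4 resting, 1 activated) and -1.13, -1.21 and -1.95 in the mtDNA NZB libraries of sets 1, 2 and 3. That of Slc38a2 was -1.12 in mtDNA B6 and -1.71, -1.39 and -2.49 in mtDNA NZB cells of the same sets. Resting mtDNA NZB replicate 2 was left out of these values. The resting libraries, in which both transcripts were high, were also those with high myeloid and granulocyte markers. In each haplotype the resting library with the highest granulocyte sum, replicate 6 in both, was the highest for Slc3a2 (436 and 569 CPM), and in mtDNA B6 also for Slc38a2 (390 CPM). The highest Slc38a2 level in mtDNA NZB cells was in replicate 5, whose granulocyte sum of 370 CPM was the lowest of its group. The part of those cells in the 2 falls was not tested.

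Slc43a1 (ENSMUSG00000027075, chr2:84669194-84698315, plus strand) encodes LAT3, a sodium-independent carrier of branched-chain amino acids and phenylalanine. It ranged from 14.2 to 32.4 CPM with a median of 22.1 in resting and from 4.30 to 17.8 CPM with a median of 7.02 in activated mtDNA B6 libraries, and the groups overlapped. Its log2 fold change there was -1.36 (SE 0.44, adjusted p = 0.014). In mtDNA NZB cells it ranged from 1.83 to 24.9 CPM at rest and from 1.63 to 14.4 CPM after activation, with a log2 fold change of -0.41 (SE 0.50, adjusted p = 0.51). The highest resting mtDNA NZB value was that of replicate 6, the library with 18377 CPM of granulocyte and 3396 CPM of erythroid markers, and the part of other cells in the level of Slc43a1 was not tested.

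Slc7a6 (ENSMUSG00000031904, chr8:106895139-106925346, plus strand) encodes y+LAT2, a light chain of CD98 that exchanges cationic for neutral amino acids. It ranged from 9.60 to 12.5 CPM in resting and from 14.7 to 18.9 CPM in activated mtDNA B6 libraries, so that every activated library was above every resting one. The log2 fold change was 0.62 (SE 0.20, adjusted p = 0.014). With the library set as a term of the fit it was 0.56 with an adjusted p of 0.10, so the call was lost. Within set 2 the difference was 0.79 in log2 CPM, between 4 resting libraries and 1 activated library. In mtDNA NZB cells Slc7a6 ranged from 0 to 28.4 CPM at rest and from 9.59 to 21.6 CPM after activation, with a log2 fold change of -0.31 (SE 0.21, adjusted p = 0.23). The value of 0 came from replicate 2, whose 51409 counts allow a level of up to 50.8 CPM (3 counts, counting error only).

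Slc7a5 (ENSMUSG00000040010, chr8:122607884-122634433, minus strand), the light chain LAT1, did not pass the test in either haplotype when the 4 groups were fitted together. It ranged from 24.8 to 39.0 CPM with a median of 33.7 in resting and from 34.7 to 65.5 CPM with a median of 46.4 in activated mtDNA B6 libraries. The ranges overlapped, and the log2 fold change was 0.51 (SE 0.27, adjusted p = 0.12, interval of 2 SE from -0.02 to 1.04). With only the 2 mtDNA B6 groups fitted it was called higher (0.50, adjusted p = 0.010), and with the library set as a term its value was 0.81 (adjusted p = 0.0503). In mtDNA NZB cells the resting libraries ran from 28.2 to 109 CPM with a median of 54.2 and the activated ones from 41.6 to 85.8 with a median of 56.3, a log2 fold change of -0.03 (SE 0.28, adjusted p = 0.93). The resting mtDNA NZB libraries were spread more widely than those of any other group. Within library sets the difference in log2 CPM was 1.09 in mtDNA B6 (set 2) and 1.10, 0.83 and -0.47 in mtDNA NZB (sets 1, 2 and 3), so the sets did not share a direction in mtDNA NZB cells. The heavy chain gene Slc3a2 fell under the same comparison in both haplotypes, as given above.

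The remaining tested carriers were not called on activation in either haplotype when all 24 libraries and 4 groups were fitted. Slc1a5 (ENSMUSG00000001918, chr7:16515265-16532731, plus strand), the glutamine carrier ASCT2, averaged 227 ± 22.6 CPM in resting and 200 ± 26.9 CPM in activated mtDNA B6 cells and 214 ± 62.3 and 182 ± 33.3 CPM in mtDNA NZB cells. Its log2 fold changes were -0.18 (adjusted p = 0.28) and -0.31 (adjusted p = 0.067). Slc38a1 (ENSMUSG00000023169, chr15:96469298-96541851, minus strand), the carrier SNAT1, averaged 99.6 ± 7.29 and 92.1 ± 4.11 CPM in mtDNA B6 and 101 ± 35.3 and 92.8 ± 12.8 CPM in mtDNA NZB cells. The fitted log2 fold changes were -0.11 (adjusted p = 0.44, edgeR) and -0.27 (adjusted p = 0.058). The resting mtDNA NZB mean includes the shallow replicate 2, at 33.9 CPM (2 counts), and was 115 ± 14.0 CPM without it (n = 5). Slc7a1 (ENSMUSG00000041313, chr5:148264220-148336848, minus strand), the arginine and lysine carrier CAT1, averaged 41.4 ± 3.47 and 39.0 ± 6.71 CPM in mtDNA B6 and 51.4 ± 35.1 and 44.2 ± 7.41 CPM in mtDNA NZB cells. The fitted changes were -0.08 (adjusted p = 0.78, edgeR) and -0.42 (adjusted p = 0.11) on the log2 scale. Resting mtDNA NZB replicate 2 had no count of Slc7a1, and without it the resting mean was 61.6 ± 27.3 CPM (n = 5). With the library set as a term Slc1a5 was called lower in mtDNA NZB cells (-0.40, adjusted p = 0.019), and with DESeq2 so was Slc38a1 (-0.30, adjusted p = 0.039). For all 3 carriers the resting and activated groups overlapped in both haplotypes. The interval of 2 SE for Slc38a1 in mtDNA B6 cells, from -0.34 to 0.12, was the narrowest of these, whereas that for Slc7a1 in mtDNA NZB cells ran from -0.86 to 0.02.

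With 3 mtDNA NZB libraries left out (replicates 2 and 6 at rest, replicate 6 after activation), leaving 21 libraries, more members passed the test in mtDNA NZB cells. The count of members that fell was then 5 instead of 2, where 3106 of all 10826 genes tested were called lower. Nothing about the set as a whole is read from that count. Slc1a5 (log2 fold change -0.54), Slc38a1 (-0.33) and Slc7a6 (-0.55) joined Slc3a2 and Slc38a2. Leaving out only resting replicate 2, the shallowest library, put Slc1a5 (-0.32, adjusted p = 0.025, edgeR) and Slc38a1 (-0.27, adjusted p = 0.021) past the threshold. Leaving out resting mtDNA NZB replicate 1 did so for Slc38a1 (-0.31) and Slc7a1 (-0.57).

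Slc7a11 and Slc1a4 were at the limit of detection and were not tested in the main fit. Slc7a11 (ENSMUSG00000027737, chr3:49846975-50398070, minus strand) encodes xCT, the light chain that imports cystine in exchange for glutamate. It had 13 UMI counts in all 24 libraries together and none in 18 of them, and the highest count was 4, in resting mtDNA B6 replicate 6. A count was absent from 3 of 6 resting and 5 of 6 activated mtDNA B6 libraries, and from 4 of 6 resting mtDNA NZB libraries. The highest count was 1 in activated mtDNA B6 and 3 in resting mtDNA NZB cells. None of the 6 activated mtDNA NZB libraries had a count, which over their 18954754 UMI counts together allows up to 0.157 CPM on the same basis. Slc1a4 (ENSMUSG00000020142, chr11:20252180-20282774, minus strand) encodes ASCT1, a carrier of serine, alanine and cysteine. It had from 0 to 12 counts per library and averaged 1.54 ± 0.94, 1.08 ± 0.30, 1.54 ± 1.00 and 1.92 ± 0.57 CPM in resting and activated mtDNA B6 and resting and activated mtDNA NZB cells. At counts this low, no difference between groups is read for either gene.

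**Figure D3:**
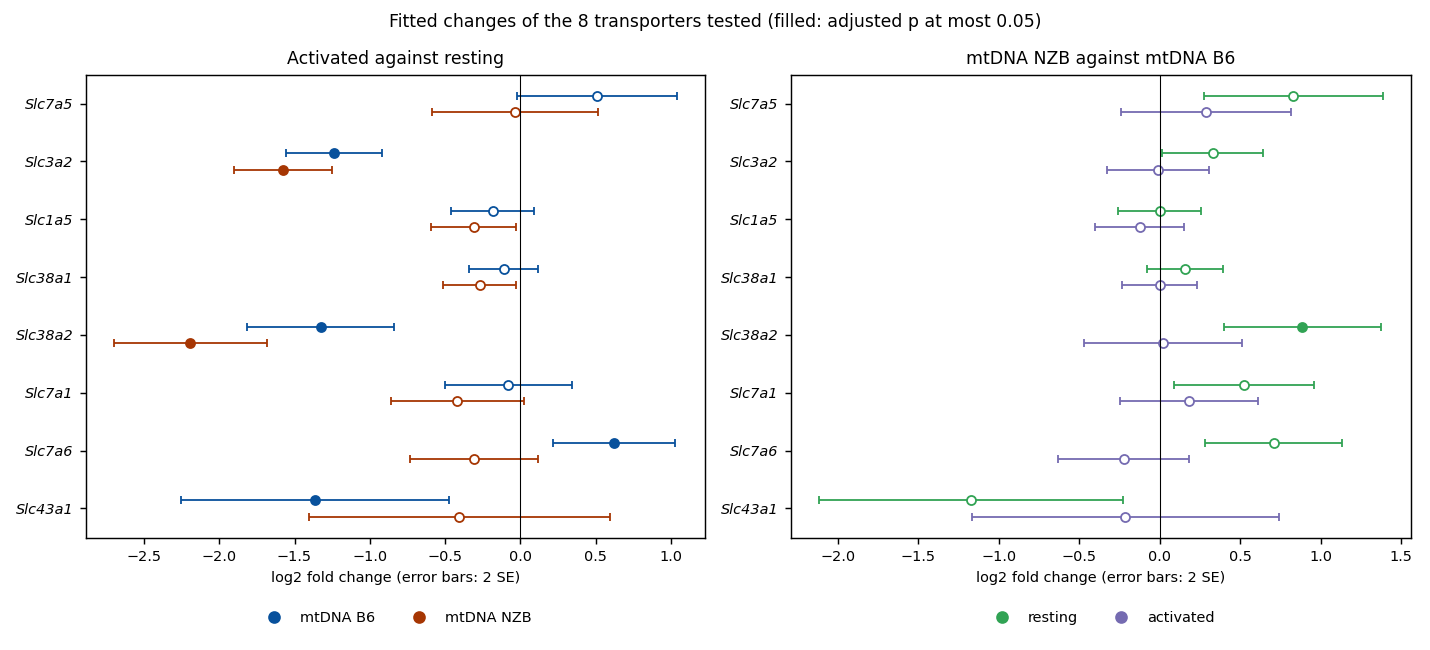
Log2 fold change of the 8 tested transporters with error bars of 2 SE, for activated against resting cells (left, by haplotype) and for mtDNA NZB against mtDNA B6 cells (right, by state); filled points have an adjusted p of at most 0.05 (edgeR). Slc3a2 and Slc38a2 are filled in both haplotypes on the left, and on the right Slc38a2 at rest, at 0.89, is the only filled point.

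At rest, Slc38a2 was the member called between the haplotypes, at a higher level in mtDNA NZB cells, and the call lay at the threshold. That is 1 of 8 members higher and 0 lower, against 1.9% and 0.861% of all 10566 genes. Slc38a2 averaged 559 ± 397 CPM in mtDNA NZB and 314 ± 39.8 CPM in mtDNA B6 cells (n = 6 each), the groups overlapped, and the log2 fold change was 0.89 (SE 0.24, adjusted p = 0.046). The call held in 5 of the 24 fits that left out a library. It was lost with median-of-ratios scaling, the second count table, only the 2 groups compared, the library set as a term and DESeq2 (log2 fold change from 0.76 to 0.90, adjusted p from 0.053 to 0.22), and kept without the filter on low counts (adjusted p = 0.040) and over 21 libraries (0.96, adjusted p = 0.030). Without resting mtDNA NZB replicate 5, at 1318 CPM, the log2 fold change was 0.44 with an adjusted p of 0.25. Within library sets the difference in log2 CPM was 0.15 in set 2 (4 mtDNA B6 libraries, 1 mtDNA NZB library) and 0.99 in set 3 (2 and 3 libraries). Resting mtDNA NZB replicate 6, the second highest at 660 CPM, was also the library richest in granulocyte markers.

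Several other members leaned the same way at rest without passing the test. The fitted value was above 0 for 7 of the 8, although that of Slc1a5 was 0.00. The median was 0.43 against -0.01 for all genes. The members share the same libraries, so nothing about the set as a whole is read from this. The lean also differed between library sets (replicate 2 left out). In set 2, with 1 mtDNA NZB library, the difference in log2 CPM was 0.03 for Slc7a5, 0.06 for Slc3a2 and 0.02 for Slc38a1. It was -0.38 for Slc7a1 and 0.44 for Slc7a6. In set 3 the values were 0.91, 0.34, 0.23, 0.83 and 0.69 in the same order. Slc7a5 averaged 61.2 ± 33.5 CPM in mtDNA NZB and 33.4 ± 5.37 CPM in mtDNA B6 cells (log2 fold change 0.83, SE 0.28, adjusted p = 0.087). Slc7a6 averaged 15.1 ± 9.16 and 10.9 ± 1.32 CPM (0.71, SE 0.21, adjusted p = 0.063). For Slc7a5, 2 mtDNA NZB libraries lay inside the mtDNA B6 range and 4 above it. For Slc7a6 all mtDNA NZB libraries but the shallow replicate 2, which had no count, lay above every mtDNA B6 library. The values for Slc7a1, Slc3a2, Slc38a1 and Slc1a5 were 0.52, 0.33, 0.16 and 0.00, with adjusted p from 0.17 to 1.00. Slc43a1 was the member with a value under 0, at 11.1 ± 8.41 CPM in mtDNA NZB and 22.3 ± 7.91 CPM in mtDNA B6 cells (-1.17, SE 0.47, adjusted p = 0.15). The marker medians given above also differed between the haplotypes at rest, and the part of other cells in these values was not tested.

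A single library held the top value for most of these genes. Resting mtDNA NZB replicate 5 was highest of all 24 libraries for Slc38a2 (1318 CPM), Slc7a5 (109 CPM), Slc7a1 (98.5 CPM), Slc7a6 (28.4 CPM) and Slc38a1 (137 CPM), and second for Slc3a2 (524 CPM), while its Slc43a1 level of 1.83 CPM was the lowest of its group. Replicate 6 was second for Slc38a2, Slc7a5 (90.3 CPM) and Slc7a1 (80.7 CPM) and highest for Slc3a2 (569 CPM). In replicates 1, 3 and 4 Slc7a5 ran from 28.2 to 40.6 CPM, near the mtDNA B6 range of 24.8 to 39.0 CPM. The shallow replicate 2 had 4 UMI counts of Slc7a5. Without replicate 1 or without replicate 3 the call for Slc7a5 was gained (0.99, adjusted p = 0.033, and 1.01, adjusted p = 0.031). Without replicate 5 its value was 0.51. The call for Slc7a6 was gained without replicate 1, 2 or 6, with values from 0.71 to 0.79. Without replicate 6, Slc43a1 was called lower (-1.79, adjusted p = 0.029). Over the 21 libraries Slc38a2 and Slc7a6 (0.82, adjusted p = 0.021) were higher and Slc43a1 (-1.82, adjusted p = 0.022) was lower. The resting difference between haplotypes in these transporters therefore moved with which mtDNA NZB libraries were counted.

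**Figure D4:**
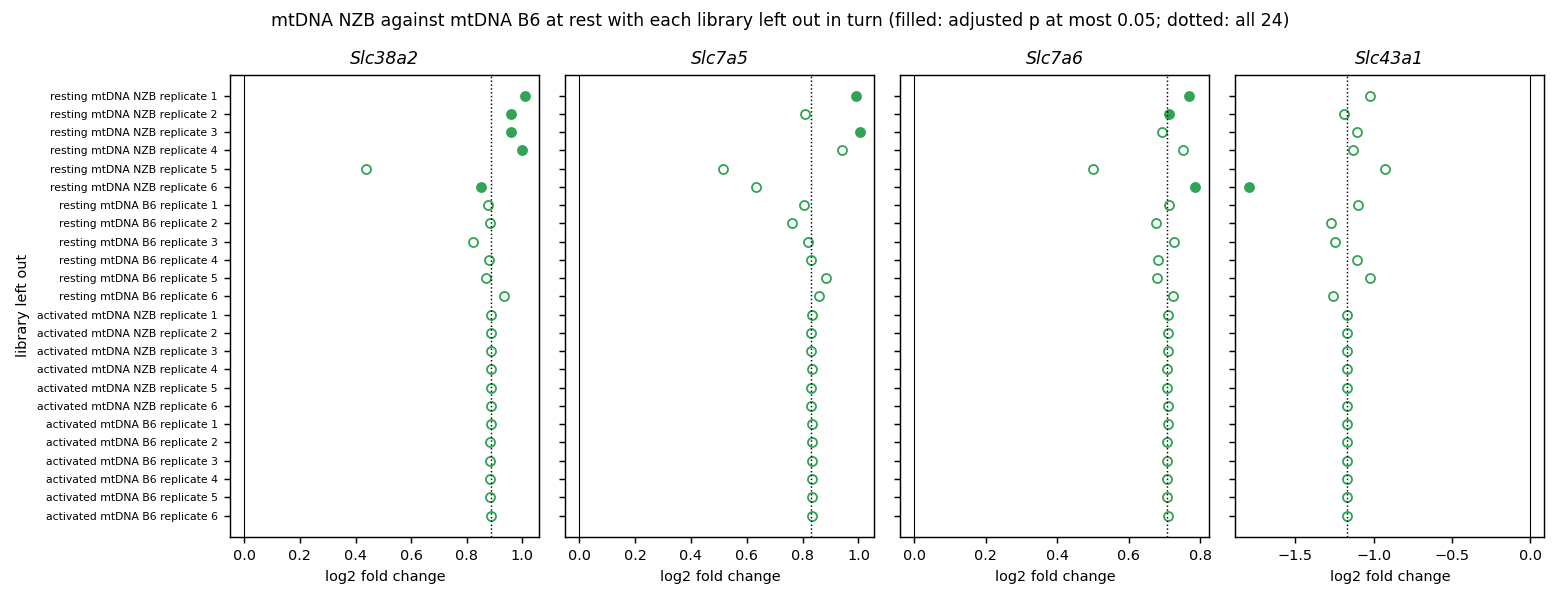
Log2 fold change of mtDNA NZB against mtDNA B6 cells at rest for 4 transporters (x axis) in the 24 fits that left out the library named on the y axis; filled points have an adjusted p of at most 0.05 and the dotted line is the value over all 24 libraries. Leaving out resting mtDNA NZB replicate 5 moved Slc38a2 from 0.89 to 0.44, and leaving out replicate 6 moved Slc43a1 from -1.17 to -1.79.

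After activation the 2 haplotypes were close. None of the 8 members was called, all adjusted p were 1, and 0 of 10566 genes passed in either direction (0%, edgeR). At an unadjusted p under 0.05, 196 genes were higher and 131 lower, none of them a member, and DESeq2 called 0 genes as well. The log2 fold changes of the members ran from -0.22 for Slc7a6 to 0.29 for Slc7a5, with a median of 0.00 against 0.01 for all genes. The interval of 2 SE was narrowest for Slc38a1, from -0.23 to 0.23, and widest for Slc43a1, from -1.17 to 0.74, so a moderate difference in the last was not detectable.

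The response to activation was also compared between the haplotypes directly, as the change in mtDNA NZB minus the change in mtDNA B6 cells. No member was called and 0 of 10566 genes passed in either direction (0%, edgeR), with 760 higher and 752 lower at an unadjusted p under 0.05 and 1 gene called by DESeq2. The value was under 0 for all tested members but Slc43a1, with a median of -0.34 against 0.02 for all genes. The members share the same libraries, and nothing about the set as a whole is read from this. For Slc7a6, which rose in mtDNA B6 and was not called in mtDNA NZB cells, the difference was -0.93 (adjusted p = 0.21), and for Slc38a2, which fell in both, it was -0.87 (adjusted p = 0.26). Over the 21 libraries the difference for Slc7a6 passed the test (-1.18, adjusted p = 0.048). Each of these differences uses the same resting libraries as the comparison of the haplotypes at rest, so the 2 are not separate evidence.

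Some of the members varied together from library to library around their group means, with all groups pooled. After the group means were taken out, Pearson's r of log2 CPM over 23 libraries (without resting mtDNA NZB replicate 2) was 0.85 for Slc7a5 with Slc7a1, 0.80 for Slc38a1 with Slc7a6, 0.79 for Slc7a5 with Slc38a2 and 0.76 for Slc7a5 with Slc3a2. Others did not: r ran from -0.22 to 0.11 for Slc1a5 and from -0.44 to -0.01 for Slc43a1 with the other members. The points share library, depth and cell makeup, so these are descriptions. The groups also differ in spread. The SD of log2 CPM of Slc7a5 was 0.89 in resting mtDNA NZB cells (n = 5) and from 0.24 to 0.41 in the other groups. That of Slc38a2 was 0.82 and from 0.15 to 0.20. The values of r for these 2 genes therefore weigh the resting mtDNA NZB libraries most. For Slc7a5 and Slc3a2, whose products pair in the membrane, r over all 23 libraries was -0.03, since Slc3a2 fell with activation and Slc7a5 did not. Among 9889 named genes, the 5 whose log2 CPM followed Slc7a5 most closely over the 23 libraries were Ptbp1 (r = 0.90), a splicing regulator, Nop56 (0.88), a nucleolar protein of small nucleolar RNPs, Map7d1 (0.87), a microtubule-associated protein, Syncrip (0.87), an RNA-binding protein, and Map2k3 (0.87), a kinase that activates p38.

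Further genes of amino acid handling were read from 4 lists. Of 31 other plasma membrane and lysosomal carriers, 13 were tested, and 5 of them fell in both haplotypes, where 24.5% and 28.4% of all genes were called lower. None rose in mtDNA B6 cells and 1, Slc43a2 (0.38), rose in mtDNA NZB cells, against 22.4% and 25.2% of all genes. Slc38a5, the glutamine carrier SNAT5, went from 22.5 ± 10.1 to 0.229 ± 0.308 CPM in mtDNA B6 and from 9.20 ± 7.35 to 0.121 ± 0.194 CPM in mtDNA NZB cells (log2 fold changes -6.37 and -5.33). Slc16a10, the aromatic amino acid carrier TAT1, changed by -2.60 and -2.94, and Slc6a9, the glycine carrier GlyT1, by -2.28 and -2.10 on the same scale. Slc7a7 and Slc38a6, named because they complete the 5, changed by -1.75 and -1.31 and by -0.67 and -0.68. The median of the 13 was -0.26 in mtDNA B6 and -0.41 in mtDNA NZB cells, and that of all genes -0.03 and -0.06. As with the members that fell, the erythroid, granulocyte and myeloid markers fell over the same comparison, and their part was not tested.

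Of 11 mitochondrial amino acid carriers, 10 were tested, and in each haplotype the same 2 rose and the same 5 fell. The share that rose was close to the 22.4% and 25.2% of all genes called higher, and the share that fell stood against 24.5% and 28.4%. Slc25a13, a mitochondrial aspartate-glutamate carrier, rose by 0.69 and 1.46 on the log2 scale in mtDNA B6 and mtDNA NZB cells, and Sfxn1, a mitochondrial serine carrier, by 0.46 and 1.10. Slc25a38, a glycine carrier needed for heme synthesis, changed by -1.11 and -1.25, Slc25a29, a basic amino acid carrier, by -0.91 and -1.32, and Sfxn2 by -0.78 and -0.62. The median of the 10 was -0.26 and -0.29, against the -0.03 and -0.06 of all genes.

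Among 30 enzymes that use imported amino acids, 24 were tested. Those called in mtDNA B6 cells were 3 higher and 6 lower, and those in mtDNA NZB cells 7 higher and 9 lower, with medians of -0.08 and 0.11. Against 22.4% higher and 24.5% lower over all genes in mtDNA B6, and 25.2% and 28.4% in mtDNA NZB cells, nothing about this list as a whole is read from these counts. Bcat1, the cytosolic aminotransferase for branched-chain amino acids, rose from 2.70 ± 0.96 to 13.8 ± 4.13 CPM in mtDNA B6 and from 2.44 ± 1.75 to 18.8 ± 3.54 CPM in mtDNA NZB cells (2.32 and 2.63 on the log2 scale). Got2, the mitochondrial aspartate aminotransferase, rose by 1.23 and 1.43, and Ahcy, which clears S-adenosylhomocysteine in the methionine cycle, by 0.93 and 1.34. Glul, the glutamine synthetase, changed by -0.96 and -1.25, Pycr1, an enzyme of proline synthesis, by -0.95 and -1.50, and Odc1, the first enzyme of polyamine synthesis, by -0.66 and -1.0.

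Of 23 regulators of amino acid sensing and transport, 21 were matched by symbol and 19 were tested, and the calls were 4 higher and 8 lower in mtDNA B6 and 3 higher and 9 lower in mtDNA NZB cells, with medians of -0.20 and -0.46. Over all genes 22.4% and 25.2% were called higher and 24.5% and 28.4% lower, with medians of -0.03 and -0.06. Nothing about this list as a whole is read from these counts. Atf4, the transcription factor of the amino acid response, ranged from 1007 to 1187 CPM in resting and from 252 to 331 CPM in activated mtDNA B6 cells, and from 508 to 1347 and from 242 to 338 CPM in mtDNA NZB cells. Its groups did not overlap in either haplotype, and its log2 fold changes were -1.89 (SE 0.15, adjusted p = 1.4e-10) and -1.99 (SE 0.15, adjusted p = 7.0e-11). Ddit3, the stress factor CHOP induced downstream of Atf4, changed by -2.03 and -2.31, and Bach1, a heme-binding repressor, by -1.65 and -2.52. Trib3, a pseudokinase also induced by Atf4, rose by 1.22 and 0.92. Castor1, a cytosolic arginine sensor of mTORC1, rose by 0.82 and 0.87, and Sar1b, a GTPase that senses leucine, by 0.56 and 0.84. Atf4 and Ddit3 therefore fell over the same comparison as Slc3a2 and Slc38a2, and Trib3 moved the other way. Myc, named because it was introduced above with Atf4, was lower in mtDNA B6 cells (-0.79, adjusted p = 0.0063, edgeR). Its groups did not overlap there. In mtDNA NZB cells Myc was not called (-0.25, adjusted p = 0.38). The part of either factor in the levels of the carriers was not tested.

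At rest, 5 genes of these lists differed between the haplotypes, and they are named here after their values were seen. Got1 (1.55, adjusted p = 0.030), the cytosolic aspartate aminotransferase, and Flcn (0.83, adjusted p = 0.044), folliculin, were higher in mtDNA NZB cells. Slc38a5 (-1.54, adjusted p = 0.044), Sfxn1 (-0.56, adjusted p = 0.039) and Gclm (-0.98, adjusted p = 0.046), the modifier subunit of the first enzyme of glutathione synthesis, were lower. In the order of the lists above, 13, 10, 24 and 19 genes were tested. Of these, 0, 0, 1 and 1 were called higher and 1, 1, 1 and 0 lower. Over all genes 1.9% were called higher and 0.861% lower, and the groups overlapped for all 5. The part of other cells in these differences was not tested. With only the 2 groups compared no gene at all was called at rest, and with the library set as a term 0 genes were called higher and 1 lower, so the calls of these genes are uncertain. After activation and in the comparison of the responses, none of the listed genes was called, as for all genes.

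**Figure D5:**
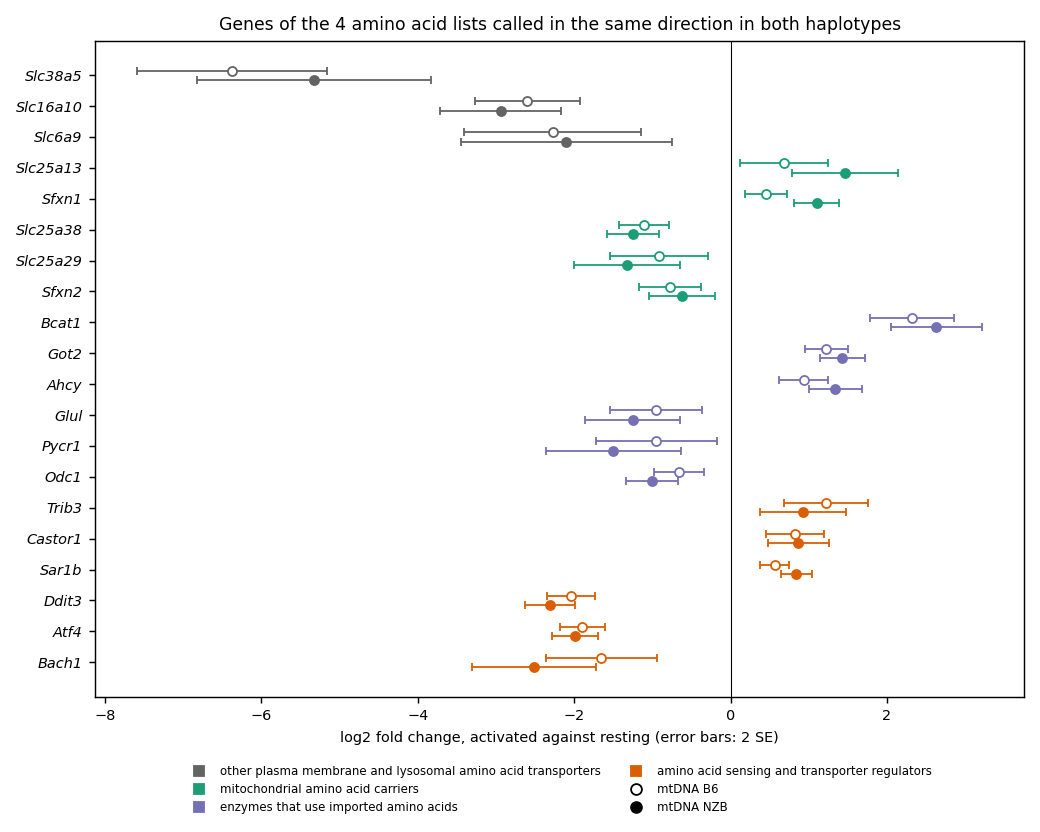
Log2 fold change on activation (x axis, error bars of 2 SE) of the genes of the 4 amino acid lists with the largest rises and falls among those called in the same direction in both haplotypes; open points are mtDNA B6 and filled points mtDNA NZB cells, and colour gives the list. Slc38a5 fell the most, by 6.37 in mtDNA B6 cells, Atf4, Ddit3 and Bach1 fell and Bcat1, Got2 and Trib3 rose in both haplotypes.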

How the data were processed

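RNA of Tconv CD4+ cells was made into bulk MARS-seq libraries, in which only transcript 3′ ends are read and a UMI tags each molecule. Per the study's methods, the authors trimmed reads with cutadapt, mapped them with STAR to the last 1000 bases of genes of GRCm39 (Ensembl annotation), counted them with HTSeq, collapsed reads of equal UMI and corrected for saturation. The authors deposited these UMI counts as whole numbers, without scaling to depth, and a second table of larger counts, used as an alternative and for reads per UMI. Reading 3′ ends can divide reads between genes that overlap there. Of the count columns, 1 matched no sample and was not used.

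Analysis used R 4.3.3, edgeR 4.0.16, limma 3.58.1 and DESeq2 1.42.0. Counts were scaled by TMM, filtered with filterByExpr and fitted over 4 groups with edgeR's quasi-likelihood test, which was checked on simulated data; adjusted p used Benjamini-Hochberg over 10566 genes. SE is the log2 fold change divided by the square root of F. Log2 CPM used a prior count of 2. The members, gene lists and tests were chosen with earlier results of these data known. Named genes are all members, Myc, per list up to 3 rises and 3 falls largest in mtDNA B6 cells among genes called alike in both haplotypes, and the 5 nearest to Slc7a5. Gene positions are from GENCODE on GRCm39, which held 24820 of the 25030 genes with a count (the rest held 0.0272% of counts). Alternatives were median-of-ratios scaling, no filter, the second table, a log2 fold of at least 1, only the 2 groups compared, the library set as a term, a replicate block, DESeq2, leaving out each library, and 21 libraries. The 3 libraries then left out do not enter the group means of the study's supplementary data. Every pair of libraries in a group differed beyond counting noise (the smallest chi-square over its degrees of freedom was 2.77).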

Additional observations from a re-analysis of the deposited data

Results flagged for a closer look

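Of 40 sets of 6 values (10 members in 4 groups), 5 held a library that stood far from the others by Dixon's test, where chance gives about 1 in 20. Of these, 3 came from resting mtDNA NZB replicate 2, the library of 51409 UMI counts: Slc38a1 was at 33.9 CPM (2 counts) against 98.8 to 137 CPM in the other 5 libraries. In the same library Slc7a1 was at 0 CPM against 31.4 to 98.5 CPM, and Slc7a6 was at 0 CPM against 13.7 to 28.4 CPM. Slc38a2 stood at 390 CPM in resting mtDNA B6 replicate 6, against 273 to 310 CPM in the other 5. Slc7a11 stood at 0.396 CPM in activated mtDNA B6 replicate 6, which was 1 count, against 0 in the others.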

How the results depend on the processing

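The falls of Slc3a2 and Slc38a2 on activation were called in both haplotypes under every alternative run, and no called value changed sign. In mtDNA B6 cells the count of members that rose, 1 over all libraries, was 0 with a log2 fold of at least 1, 0 with the library set as a term and 2 with only the 2 groups compared (Slc7a5 was the gain). In mtDNA NZB cells the count that fell, 2, was 5 over 21 libraries and from 2 to 4 when a library was left out (4 without resting mtDNA NZB replicate 1 or 2). Over the 21 libraries 3106 of 10826 genes tested were called lower in that comparison, and over all 24 libraries 2998 of 10566. The share of all genes is not given here for the fits that left out 1 library. Nothing about the set as a whole is read from these counts. At rest the count of members higher in mtDNA NZB, 1, was 0 with a log2 fold of at least 1, with median-of-ratios scaling, the second table, only the 2 groups, the library set as a term and DESeq2, was 2 over 21 libraries, and ran from 0 to 3 when a library was left out. The count lower, 0, was 1 over 21 libraries and from 0 to 1 with a library left out (1 without resting mtDNA NZB replicate 6). In the difference of responses the count lower, 0, was 1 over 21 libraries. The causes were not tested. Over all genes at rest, 201 were higher and 91 lower. The counts were 242 and 420 over 21 libraries, 128 and 52 with DESeq2, 30 and 13 with the second table, 0 and 0 with only the 2 groups, and 0 and 1 with the library set as a term. The difference of responses called 95 and 18 genes over 21 libraries. DESeq2, fitted without the filter on low counts, moved the median log2 fold change of all genes to -0.27 for activation in mtDNA NZB, 0.12 at rest and -0.21 for the difference.

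The labels do not say that a number marks a shared animal, and pairing was not established: of 9 pairs that shared a description number, 3 had deviations correlated over 0.1 (r from -0.16 to 0.25), all of them among the mtDNA B6 pairs. A replicate block by description number left the counts of members on activation as they were (1 higher and 3 lower in mtDNA B6, 0 and 2 in mtDNA NZB cells). With a replicate block by title number the members higher at rest were 0 (Slc38a2 0.75, adjusted p = 0.094) and the genes called at rest were 39 and 33. Depth limits Slc7a11, Slc1a4 and every value of resting mtDNA NZB replicate 2.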
